A study of Mus musculus with 8 samples.

Results

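Genes of the ocular surface glycocalyx, 10 in number, were read across wounded mouse corneas with and without Opn5, which encodes neuropsin, an opsin that responds to violet and ultraviolet light. They were the membrane mucin genes Muc1, Muc4, Muc15, Muc16 and Muc20, the galectin 3 gene Lgals3, the goblet-cell genes Clca1 and Agr2, the uroplakin gene Upk1b and the mesothelin gene Msln. These 10 genes were chosen by name, as a gene family and its partners, with earlier results of these data known. All 10 were found among the 16091 genes of the deposited table. The Opn5-null group (genotype Opn5-/-) and the wild-type group held 4 whole-cornea samples each, lettered A to D, from mice. In both groups the corneal epithelium had been debrided 12 hours before the tissue was collected, so no unwounded cornea stood in the comparison. Strain, age and light exposure were not given in the sources used here, and all 8 titles carried the word Light without explanation. A strain difference therefore cannot be told apart from the genotype. Whether the 4 corneas of a genotype came from different mice was not stated, so p-values reflect the spread among these libraries alone, and that spread may be technical.

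Membrane mucins are long, heavily O-glycosylated proteins that stand on the apical folds of the outermost epithelial cells and are anchored there by a transmembrane segment. With galectin 3, which binds and cross-links their sugars, they form a hydrated, non-adhesive barrier over the cornea. Secreted mucins come mainly from goblet cells of the neighbouring conjunctiva. In a debrided cornea the surface cells that carry the glycocalyx have been removed, and epithelium from the periphery migrates over the stroma and later stratifies again.

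The windows around the annotated starts of 3 membrane mucin genes are shown. Muc4 and Muc20, which overlap in the genome, were among the closest pairs in level over the 8 libraries (given further on). Muc1 had a wild-type level (1922 normalized counts) near that of Muc20 (2081), and both were far below Muc4. Muc15, which ran closest to Muc20, had no window. They come from RefSeq on GRCm38.p6 and run from 250 bases before to 50 bases after the start, 5′ to 3′ on the gene's strand. Capitals mark motif matches on either strand. Muc4 is at chr16:32735636-32735935 on the forward strand, Muc20 at chr16:32797386-32797685 on the reverse strand and Muc1 at chr3:89228806-89229105 on the forward strand.
Muc4: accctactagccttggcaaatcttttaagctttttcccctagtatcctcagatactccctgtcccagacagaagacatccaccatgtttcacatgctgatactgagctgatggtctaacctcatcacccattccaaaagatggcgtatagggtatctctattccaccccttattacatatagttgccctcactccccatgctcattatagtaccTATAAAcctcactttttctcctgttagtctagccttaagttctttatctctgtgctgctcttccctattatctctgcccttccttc
Muc20: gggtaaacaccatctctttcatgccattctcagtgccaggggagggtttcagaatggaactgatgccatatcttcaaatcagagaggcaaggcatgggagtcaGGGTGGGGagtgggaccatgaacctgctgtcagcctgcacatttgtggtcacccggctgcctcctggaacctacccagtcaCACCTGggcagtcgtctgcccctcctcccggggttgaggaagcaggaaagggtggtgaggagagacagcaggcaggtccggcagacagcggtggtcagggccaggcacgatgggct
Muc1: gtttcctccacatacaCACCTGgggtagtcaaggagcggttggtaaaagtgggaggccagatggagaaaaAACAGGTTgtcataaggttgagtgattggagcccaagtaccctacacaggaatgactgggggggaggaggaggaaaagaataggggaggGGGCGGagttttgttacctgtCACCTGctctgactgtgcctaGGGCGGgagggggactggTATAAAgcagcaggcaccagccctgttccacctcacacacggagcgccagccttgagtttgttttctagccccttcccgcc

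Of the 10 genes, 6 had a window in the RefSeq table (Muc1, Muc4, Muc16, Muc20, Agr2 and Lgals3). The Muc1 window held a grainyhead-type match (AACNGGTT), a motif in 2.09% of 32851 windows of this length, which none of the other 5 windows held. A TATA box (TATAAA), present in 13.6% of all windows, stood in the windows of Muc1 and Muc4, at 31 and 36 bases before the start. An E-box (CAGGTG, 20.2% of all windows) stood in the Muc1, Muc20 and Lgals3 windows, a CACCC box (CCCCACCC, 9.99%) in that of Muc20 and a GC box (GGGCGG, 35.7%) in those of Muc1 and Lgals3. An NF-kB core match (in 20.7% of all windows) stood in the Muc16 and Lgals3 windows, and the AP-1 letters TGANTCA (7.81%) in 0 of the 6. Matches of different motifs did not overlap in the 3 windows shown. Such matches describe letters only, and the 3 windows had no motif in common.

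The libraries held 21111715 to 28219234 recovered reads. Values are normalized counts, that is, reads divided by 1 size factor per library, and a read was worth 0.837 to 1.32 of them. Opn5 was not analysed here, so the genotypes rest on the labels. The labelled tissue held its defining transcripts in every library. Krt12, the cornea's own keratin, measured 15836 to 85007 normalized counts in Opn5-null and 91673 to 189385 in wild-type corneas, and Kera, the keratocyte proteoglycan keratocan, 3847 to 10206 over all 8.

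Opn5-null D stood apart from the other Opn5-null libraries before any mucin was read. The mean log2 level of 19 measured corneal epithelial differentiation genes differed from the wild-type mean by -2.57 there, and by -1.07, -0.47 and -0.50 in Opn5-null A, B and C. This list also held the basal-layer genes Krt5, Krt14, Krt15 and Trp63, so it did not mark differentiated cells alone. The summed level of the 19 ran from 116879 to 492471 normalized counts in Opn5-null and from 627932 to 821525 in wild-type corneas, with 5 of 19 lower and 0 higher. Over all genes the same limma test called 13.5% lower and 18.8% higher. Krt5 and Krt14 averaged 182285 and 148118 normalized counts in wild-type corneas. The lower count was 9 without Opn5-null D, 8 after quantile normalization, 3 with edgeR and 2 without any 1 wild-type library. A list of 16 pan-epithelial junction genes such as Dsp, Pkp1 and Cdh1 differed from the wild-type mean by -2.21 in Opn5-null D and by -0.51 to -0.46 in the others. Its summed level ran from 34112 to 128743 against 166146 to 184472 normalized counts, with 0 of 16 called by limma. At an unadjusted p below 0.05 9 of them were lower, DESeq2 called 5 lower and edgeR 0. With limma 13 were lower without Opn5-null D, 6 under upper-quartile scaling and 8 under quantile normalization. Counts over all genes moved too, from 2175 lower to 2460 without Opn5-null D, 3663 under upper-quartile scaling and 3746 under quantile normalization. They were 2046 with edgeR, 2715 with DESeq2 and 1079 to 1490 without any 1 wild-type library. All 7 pan-leukocyte genes were higher in Opn5-null corneas, with a summed level of 31520 to 88661 against 5147 to 10032 normalized counts. No gene of these 3 lists was at 0 in any library. In whole tissue, fewer epithelial cells and less RNA per cell cannot be told apart. The part of these cell types in the results that follow was not tested. Values relative to epithelium are given further on as a description only.

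Lower levels of glycocalyx transcripts were the common direction in Opn5-null corneas. All 10 genes had a negative fold change, and 6 of 10 passed the test as lower (Msln, Upk1b, Clca1, Muc4, Muc16 and Lgals3) and 0 as higher. The test was limma on log2(value + 1), with Benjamini-Hochberg adjustment over 16085 genes and a threshold of 0.05. Over all those genes it called 13.5% lower and 18.8% higher. Because the 10 genes were chosen with earlier results of these data known, comparisons with all genes are descriptive. The median log2 fold change was -1.43 for the 10 genes and -0.02 for all genes tested. In 8 of 10 genes every Opn5-null library lay below every wild-type library, against 18.1% of all genes. The authors' deposited table gave 8 of 10 as lower at an adjusted p below 0.05, adding Muc1 and Muc20, against 16.9% of its genes. DESeq2 run here on the recovered reads nearly repeated that table (2715 against 2716 genes lower), so they are not separate results. Without Opn5-null D, 8 of 10 were called lower, and without wild-type A only Clca1, Msln and Muc16 were.

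**Figure D1:**
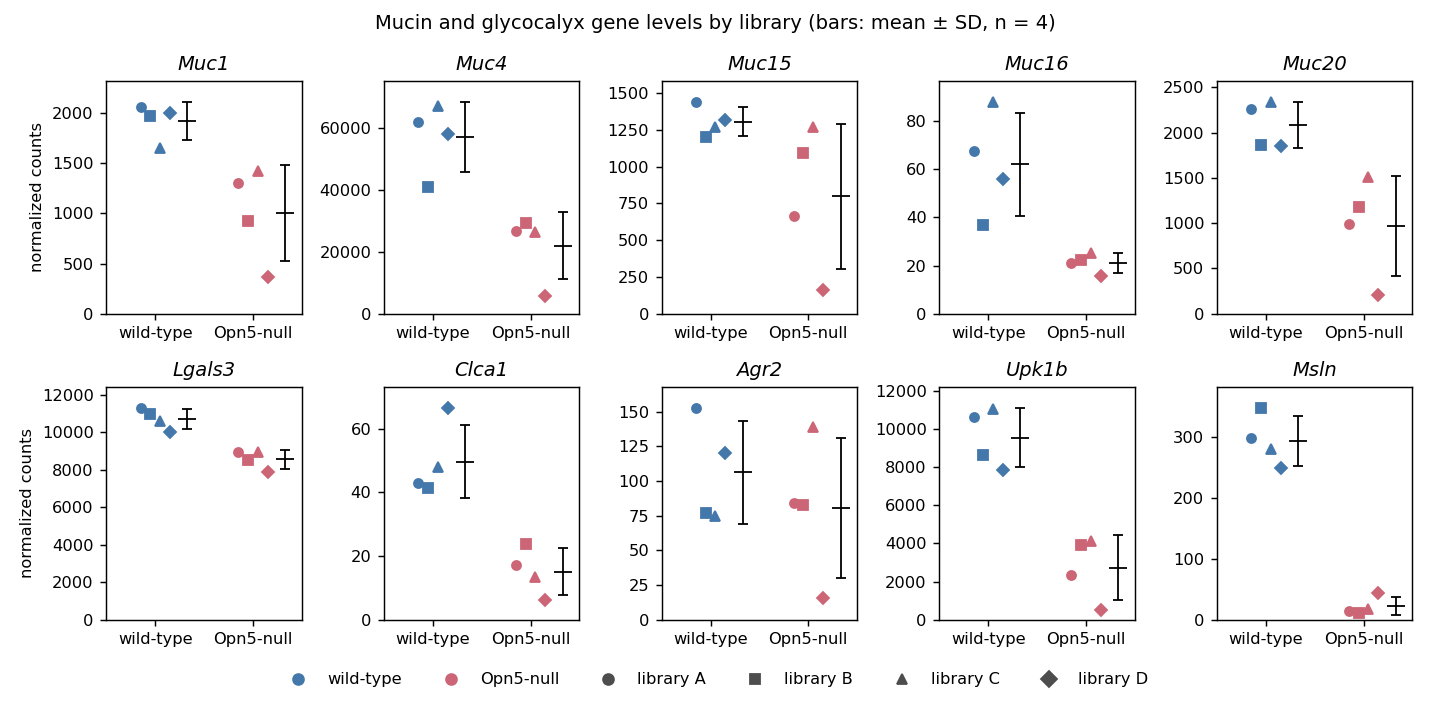
Normalized counts (y axis, linear from 0) of each of the 10 genes in the 4 wild-type and 4 Opn5-null libraries (x axis). Points are libraries, with 1 shape per letter, and bars give mean ± SD. Opn5-null D is the lowest library for 9 genes and the highest Opn5-null library for Msln.

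Muc4 is a large membrane mucin of the outer corneal and conjunctival cell layers, and it was by far the most abundant mucin transcript here. It lies at chr16:32735886-32782391 on the forward strand (GENCODE M21, GRCm38, ENSMUSG00000079620). Its level was 26555, 29263, 26288 and 5703 normalized counts in Opn5-null A to D. In wild-type A to D it was 62015, 40925, 67039 and 57853. The groups did not overlap, 3 Opn5-null libraries lay close together and Opn5-null D was far below them. The means were 21952 ± 10916 and 56958 ± 11329 (SD, n = 4), and the log2 fold change was -1.60 ± 0.50 (SE, adjusted p = 0.0397, limma). Without Opn5-null D the log2 fold change was -1.03 ± 0.16 (adjusted p = 0.00192, limma). The call was lost without Opn5-null A (adjusted p = 0.0513, limma) or without any 1 wild-type library (0.0576 to 0.0971), and the direction held in each.

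Muc16 encodes the largest membrane mucin, known in people as CA125, which forms the outermost reach of the glycocalyx. Its gene spans chr9:18495455-18674530 on the reverse strand and it was the least abundant of the 5 membrane mucins. It measured 21.1, 22.5, 25.1 and 15.7 normalized counts in Opn5-null A to D and 67.5, 36.8, 87.9 and 56.1 in wild-type A to D. These values rest on 16 to 30 reads in each Opn5-null library and 40 to 92 in each wild-type library. The groups did not overlap, and Opn5-null D lay close to the other Opn5-null libraries, unlike for Muc4. The log2 fold change of Muc16 was -1.47 ± 0.29 (SE, n = 4, adjusted p = 0.00592, limma), and it was called in all 18 alternative fits.

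Muc1, Muc20 and Muc15 did not pass the test, although Opn5-null D was again the lowest library for each. Muc1, the membrane mucin with a signalling cytoplasmic tail, is at chr3:89229057-89233381 on the forward strand. It measured 1302, 923, 1422 and 361 normalized counts in Opn5-null A to D against 2066, 1971, 1648 and 2005 in wild-type A to D. The Muc1 groups did not overlap, and the log2 fold change was -1.11 ± 0.39 (SE, adjusted p = 0.0586, limma). It passed with Opn5-null D left out (adjusted p = 0.00972, limma) or Opn5-null C (0.0313).

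Muc20, a smaller membrane mucin also studied in the kidney, is encoded next to Muc4 at chr16:32777419-32797435 on the reverse strand. Its level was 987, 1178, 1508 and 212 normalized counts in Opn5-null A to D. In wild-type A to D it was 2261, 1867, 2337 and 1857. Here too the groups did not overlap, but 3 Opn5-null libraries and Opn5-null D lay far apart. Its log2 fold change was -1.40 ± 0.55 (SE, adjusted p = 0.0803, limma), and -0.78 ± 0.15 without Opn5-null D (adjusted p = 0.00535, limma). Without Opn5-null C Muc20 also passed (adjusted p = 0.0426, limma).

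Muc15, a membrane mucin first described in milk fat globules, is at chr2:110721340-110739527 on the forward strand. It measured 666, 1093, 1270 and 161 normalized counts in Opn5-null A to D and 1439, 1202, 1269 and 1315 in wild-type A to D. Opn5-null C overlapped the wild-type range. The log2 fold change was -1.07 ± 0.57 (SE, adjusted p = 0.185, limma), and Muc15 was called in 0 of 18 alternative fits. Muc4 and Muc20 overlap on opposite strands over 4973 bases, and the 627 shared exonic bases were 5.33% of the exonic bases of Muc4 and 15.6% of those of Muc20. Muc15 lies within Ano3 on the opposite strand, with 61 shared exonic bases. The strand setting of the authors' counting was not given in the sources used here, so reads in these stretches, and with them the level of Muc20 beside the far more abundant Muc4, are uncertain.

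Across the 5 membrane mucins together, Muc4 supplied 86.2% to 92.6% of the summed normalized counts in every library. The sum was 29530, 32480, 30512 and 6453 normalized counts in Opn5-null A to D, below the 46002 to 72382 of the wild-type libraries. Per exonic kilobase, the scale on which levels of different genes can be compared, Muc4 made up 73.5% of the mucin total in wild-type and 67.4% in Opn5-null corneas. Muc1 followed with 12.8% and 16.6%. Muc16 held 0.0352% and 0.0391%. The share of Muc4 on that scale overlapped between the genotypes, with 62.6% to 71.5% in Opn5-null and 67.9% to 77.6% in wild-type libraries.

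Over all 10 genes, wild-type levels per exonic kilobase were in the order Lgals3 (5769), Muc4 (4845), Upk1b (4565), Muc1 (819), Muc20 (517), Muc15 (366), Msln (95.7), Agr2 (82.2), Clca1 (13.1) and Muc16 (2.36 normalized counts per kilobase). The 4 libraries of Lgals3 and Muc4, of Muc4 and Upk1b, and of Msln and Agr2 overlapped, and the other neighbours in this order did not. In Opn5-null corneas the order was the same except that Agr2 stood above Msln.

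Lgals3 encodes galectin 3, the lectin that bridges mucin sugar chains at the apical surface and that macrophages also make in quantity. It is at chr14:47367751-47386160 on the forward strand. Its level was 8945, 8537, 8918 and 7859 normalized counts in Opn5-null A to D and 11271, 10992, 10587 and 10029 in wild-type A to D. The groups did not overlap and each was tight. Lgals3 was 1.25-fold lower, and its log2 fold change of -0.32 ± 0.08 was the smallest of the 10 (SE, n = 4, adjusted p = 0.0121, limma). Its call was lost without wild-type A (adjusted p = 0.0508, limma). Unlike Muc4 it was not sharply lower in Opn5-null D. Of 16 monocyte and macrophage markers 12 were higher and 2 lower in Opn5-null corneas. That list's mean log2 level was 1.63 above the wild-type mean in Opn5-null D and its summed level over the libraries was 40665 to 108833 against 9203 to 14893 normalized counts, with no marker at 0, and its part in the level of Lgals3 was not tested.

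The goblet-cell genes Clca1 and Agr2 parted. Clca1, a secreted protease that goblet cells release with mucus, is at chr3:145003817-145032776 on the reverse strand. It measured 17.1, 23.7, 13.4 and 6.09 normalized counts in Opn5-null A to D and 42.9, 41.4, 47.8 and 66.3 in wild-type A to D. All Opn5-null libraries were below all wild-type libraries. Clca1 had a log2 fold change of -1.77 ± 0.38 (SE, n = 4, adjusted p = 0.00903, limma), from 56 reads in the Opn5-null and 208 in the wild-type group, and was called in all 18 alternative fits.

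Agr2, a disulfide isomerase of the endoplasmic reticulum that mucin-producing cells need to fold mucins, is at chr12:35992907-36004087 on the forward strand. Its level was 84.2, 83.0, 139 and 15.7 normalized counts in Opn5-null A to D and 152, 77.2, 74.6 and 121 in wild-type A to D. The groups overlapped, and only Opn5-null D lay outside the wild-type range on the low side. The log2 fold change was -0.68 ± 0.61 (SE, adjusted p = 0.422, limma), and -0.03 ± 0.30 without Opn5-null D (adjusted p = 0.941, limma).

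Upk1b encodes uroplakin 1b, a tetraspanin of the rigid plaques of bladder surface cells that is also made by corneal and conjunctival epithelium. The gene is at chr16:38773184-38800328 on the reverse strand. It measured 2339, 3927, 4145 and 490 normalized counts in Opn5-null A to D. In wild-type A to D it measured 10599, 8647, 11046 and 7854. The groups were far apart, and Opn5-null D was again the lowest. The log2 fold change of Upk1b was -2.18 ± 0.62 (SE, n = 4, adjusted p = 0.0278, limma), and -1.49 ± 0.22 without Opn5-null D (adjusted p = 0.00214, limma). The call was lost without Opn5-null A (adjusted p = 0.0547, limma) or any 1 wild-type library (0.0556 to 0.0721).

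Msln encodes mesothelin, a lipid-anchored surface protein of mesothelial cells that binds MUC16 in human cells. It is at chr17:25748613-25754378 on the reverse strand (ENSMUSG00000063011). Its level was 14.5, 11.9, 18.4 and 43.5 normalized counts in Opn5-null A to D and 298, 346, 279 and 249 in wild-type A to D. Mesothelin transcripts thus rested on 10 to 22 reads in 3 Opn5-null libraries, and Opn5-null D, the lowest library for the other 9 genes, was here the highest of its group. The log2 fold change was -3.84 ± 0.36 (SE, n = 4, adjusted p = 0.000222, limma), and -4.22 ± 0.20 without Opn5-null D (adjusted p = 6.15e-06, limma). It was called in all 18 alternative fits. Of 10 measured mesothelial markers 7 were lower and 0 higher, with a summed level of 8000 to 15171 against 22833 to 28817 normalized counts and none at 0 in any library. Those 7 included Muc16, itself among the genes described here, and the simple-epithelium keratins Krt7, Krt8, Krt18 and Krt19, which conjunctival cells share. Krt7 and Krt19 averaged 9778 and 10189 normalized counts in wild-type corneas and made up most of the sum there. The lower count was 3 without Opn5-null A or wild-type B and 4 without wild-type A or wild-type C. The mesothelial uroplakin gene Upk3b measured 8.76 against 19.4 normalized counts and was not called, nor were Bnc1 and Rspo1.

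**Figure D2:**
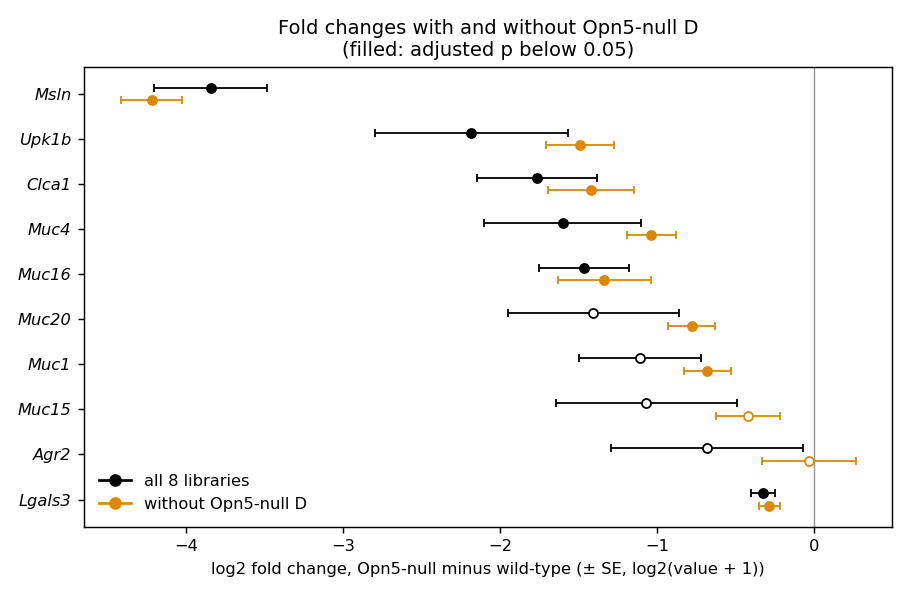
Log2 fold change, Opn5-null minus wild-type (x axis, log2(value + 1) scale, bars ± SE), of the 10 genes (y axis), with all 8 libraries in black and without Opn5-null D in orange. Filled points have an adjusted p below 0.05 by limma. Leaving out Opn5-null D brings most genes nearer to 0 with shorter bars, adds calls for Muc1 and Muc20, and moves Msln from -3.84 to -4.22.

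Because epithelial markers were also low in Opn5-null D, each gene was set against the mean log2 level of an epithelial list in the same library. Relative to the corneal differentiation list, only Upk1b kept all Opn5-null libraries below all wild-type libraries, and 9 of 10 genes overlapped. Upk1b differed from the wild-type mean by -0.95, -0.79, -0.68 and -1.70 in Opn5-null A to D on this log2 scale. Relative to the junction list, Upk1b, Clca1, Muc4 and Msln stayed below, Lgals3 lay above and the other 5 overlapped. Both lists held Cldn1, Cldn4, Cldn7 and Dsp, so they are not independent references. No test was made on these referenced levels.

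The sizes differed by gene. For Muc4 the mean difference from wild-type on the log2 scale was -0.45 relative to the differentiation list and -0.69 relative to the junction list, against -1.60 unreferenced. For Muc1 these were 0.04, -0.20 and -1.11, and for Muc15 0.09, -0.16 and -1.07. Relative to the differentiation list Muc1 differed by 0.51, -0.58, 0.08 and 0.17 in Opn5-null A to D. Its mean near 0 thus averaged opposite signs. Msln differed by -3.17, -4.03 and -3.41 in Opn5-null A, B and C relative to the differentiation list, but by -0.14 in Opn5-null D. Lgals3 was 0.14 to 2.12 above the wild-type mean in the 4 Opn5-null libraries by that reference, with Opn5-null D the highest. The mean difference of Lgals3 and Agr2 was negative unreferenced and positive relative to either list, and that of Muc1 and Muc15 was positive relative to the differentiation list only.

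**Figure D3:**
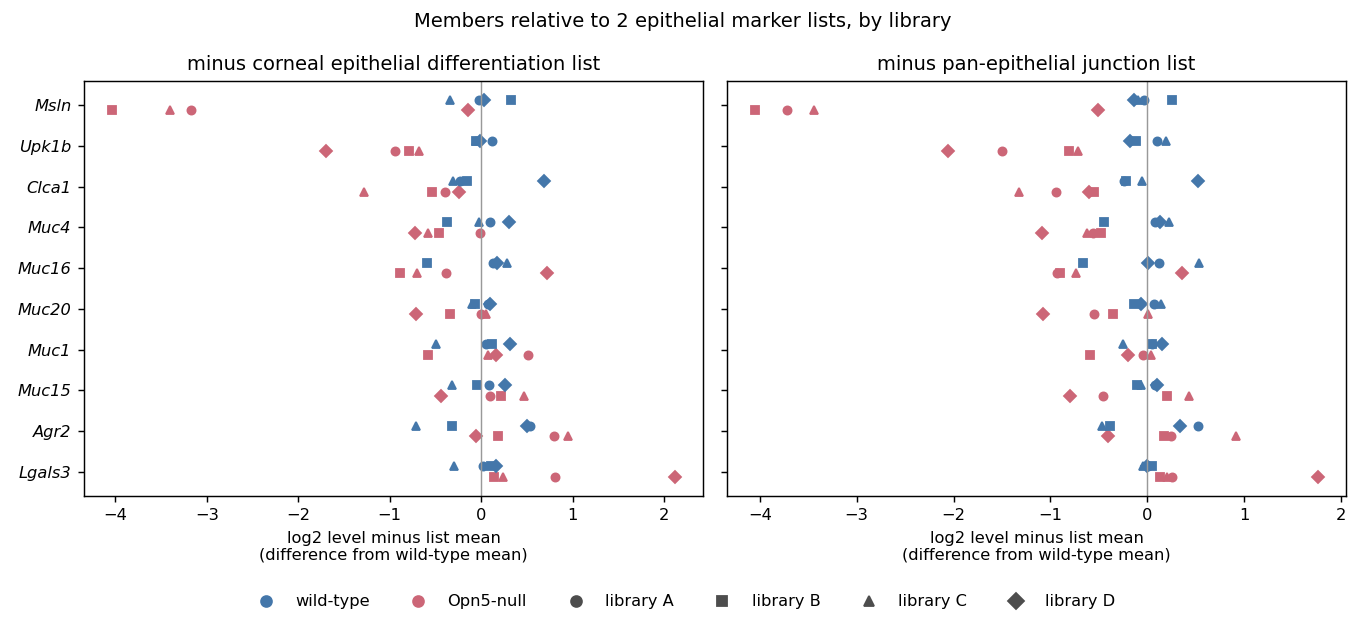
Log2 level of each gene minus the mean of an epithelial list in the same library, as a difference from the wild-type mean (x axis), for the corneal differentiation list (left) and the junction list (right). Points are libraries, with genotype by colour and letter by shape. Upk1b is apart in both panels, and Msln is far to the left in Opn5-null A to C but near -0.14 (left) and -0.51 (right) in Opn5-null D.

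Which genes ran most like each one was measured as the root-mean-square difference of centred log2 levels over the 8 libraries. Among the 10 genes the closest pairs were Muc15 with Muc20 (0.23) and Muc4 with Muc20 (0.25). Against all genes with a mean of at least 50, Muc20 was closest to Trim29, Epha1 and Liph (0.072 to 0.087). Muc4 was closest to Arhgap40, Clca4c-ps and Sh3rf2 (0.12 to 0.17), and Muc1 to Pglyrp1, Tspan1 and Cldn23 (0.15). Upk1b ran nearest to Cbln1, the keratin gene Krt78 and the uroplakin-like gene Upk3bl (0.17 to 0.18). The nearest to Muc15 were Defb1, Rnf208 and Fabp6 (0.12 to 0.14).

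Agr2, which differed little outside Opn5-null D, ran nearest to Sapcd2 and the mitotic genes Cdc20 and Kif2c (0.17 to 0.24). Lgals3 was nearest to Tmem65, Sept8 and Lin7c (0.040 to 0.044). Muc16 was nearest to Lsamp, Porcn and Ddb2 (0.22 to 0.25) and Clca1 to Aspa, Slco2b1 and Hspa1b (0.22 to 0.25). Msln had no gene as close, its nearest being Fmo2 (0.62), Sult1a1 (0.77) and Hif3a (0.77). These are descriptions over 8 points, and the points share genotype and library.

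**Figure D4:**
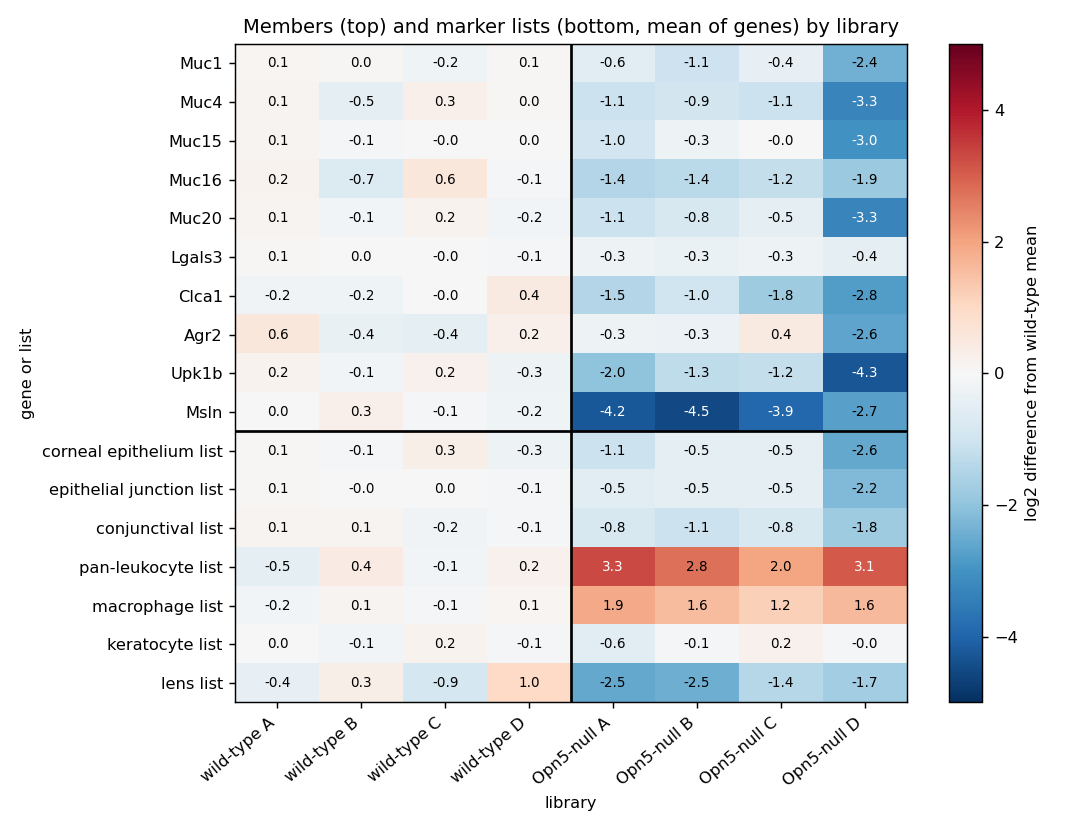
Log2 difference from the wild-type mean (colour and printed value) of the 10 genes (top rows) and of the mean of marker lists (bottom rows) in each library (columns). Most mucins and both epithelial lists are lowest in Opn5-null D, Msln is lowest in Opn5-null A to C, and the pan-leukocyte list is 1.96 to 3.31 above wild-type in all 4 Opn5-null libraries.

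Genes that make, bind or cut surface mucins did not share 1 direction. For scale, limma called 13.5% of all genes lower and 18.8% higher, and the lower counts of several lists below lie near that share. Counts over all genes also moved under the alternative fits, as given further on. Up to 4 called genes per list with the lowest adjusted p are named, and the others named here were chosen after their values were seen. Of 13 other mucin and sialomucin genes 2 were lower and 4 higher. The gel-forming mucin gene Muc6 was 3.49-fold lower (adjusted p = 0.0114, limma) and the membrane protein gene Parm1 1.49-fold lower. Prg4, which encodes the lubricant lubricin, was 6.77-fold higher (adjusted p = 0.00484, limma). The leukocyte sialomucin genes Spn and Selplg were 3.30-fold and 2.84-fold higher, and Cd164 1.19-fold higher. The Spn and Selplg rise stood beside the higher pan-leukocyte list, whose part was not tested. The call of Parm1 was lost without any 1 wild-type library (adjusted p = 0.0624 to 0.0738, limma) and that of Cd164 in 10 of 18 alternative fits (0.0504 to 0.777), among them the quantile and upper-quartile scalings, each wild-type library left out and edgeR.

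Among 32 mucin O-glycosylation enzymes 5 were lower and 10 higher, with a median log2 fold change of 0.28. Fut2, the fucosyltransferase that builds H antigen on mucins, measured 118 ± 75.3 against 10.0 ± 1.55 normalized counts (SD, n = 4) and was 11.7-fold higher (adjusted p = 0.000922, limma). Gcnt2, the enzyme that branches poly-lactosamine, was 5.85-fold higher, and the sialyltransferase gene St6galnac4 2.98-fold higher. Lower were B3gnt3 (2.40-fold), which extends core 1 chains, the sialyltransferase gene St6galnac2 (3.42-fold), the fucosyltransferase gene Fut4 (2.00-fold), and the chain-initiating enzyme genes Galnt12 (1.94-fold) and Galnt3 (1.75-fold). The call of Galnt3 was lost without any 1 wild-type library (adjusted p = 0.0798 to 0.0886, limma) and that of Galnt12 without wild-type D (0.0507). The lower count was 3 without wild-type D, where that over all genes was 1289 against 2175. The higher count was 17 with limma-voom with quality weights, where that over all genes was 4062 against 3029.

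Of 12 galectins and galectin-binding genes 8 were higher and 2 lower, with Lgals3 itself not counted in the list. Lgals9 was 4.12-fold higher (adjusted p = 9.31e-05, limma) and Lgals3bp, which encodes a secreted galectin 3 ligand, 3.63-fold higher (adjusted p = 5.36e-05, limma). Lgals8 was 1.46-fold and the hyaluronan receptor gene Cd44 1.91-fold higher. Lower were Lgals4 (1.74-fold) and Mgat5 (1.28-fold), which encodes the enzyme that builds branched N-glycan ligands of galectin 3. After quantile normalization 5 were higher, and the lower count was 1 without Opn5-null B, Opn5-null C or any 1 wild-type library.

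Of 16 goblet and secretory genes 3 were lower and 1 higher. Bcas1 was 3.37-fold, the surface protease gene Tmprss2 2.44-fold and the chloride cotransporter gene Slc12a2 1.84-fold lower, and the secretory-pathway transcription factor gene Creb3l1 was 2.35-fold higher (adjusted p = 0.000475, limma). The lower count was 1 without any 1 wild-type library and 5 without Opn5-null B. It was 6 after quantile normalization and 5 with DESeq2 or limma-voom, and the higher count was 3 without Opn5-null D. Muc5ac, which encodes the main gel-forming mucin of conjunctival goblet cells, measured 27.6, 30.8, 40.2 and 93.2 normalized counts in Opn5-null A to D and 52.2, 53.3, 33.5 and 36.4 in wild-type A to D. The groups overlapped, and the log2 fold change was -0.02 ± 0.38 (SE, adjusted p = 0.975, limma). Beside these genes, 6 of 9 conjunctival epithelial markers were lower and 0 higher, with a summed level of 16952 to 66074 against 121232 to 148424 normalized counts and none at 0. All 6 were keratin genes, among them Krt7, Krt8, Krt18 and Krt19, which the mesothelial list also held. The lower count of the conjunctival list was 3 without wild-type A or D and 2 without wild-type B.

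Among 6 uroplakin and tetraspanin genes other than Upk1b, Upk3bl was 3.31-fold lower (adjusted p = 0.0282, limma) and Tspan13 1.80-fold higher. The call of Upk3bl was lost without Opn5-null A or any 1 wild-type library (adjusted p = 0.0536 to 0.0748, limma), and the lower count was 4 without Opn5-null C, 2 without Opn5-null D and 3 with the quantile or upper-quartile scaling. Of 10 linker and microvillus genes 3 were lower and 1 higher, and 5 were lower without Opn5-null D or with the quantile or upper-quartile scaling. Ezr, which encodes the ezrin that ties membrane proteins to apical actin, was 1.49-fold lower (adjusted p = 0.00535, limma). Eps8l2 was 2.31-fold and the plectin gene Plec 1.42-fold lower, and Plec lost its call without wild-type A, C or D (adjusted p = 0.0519 to 0.056, limma). Msn, which encodes moesin, abundant in leukocytes and endothelium, was 2.03-fold higher.

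Of 11 sheddases, which cut mucins from the surface, and their inhibitors, 5 were higher and 2 lower. Timp1, a metalloproteinase inhibitor gene, measured 22390 ± 8319 and 1454 ± 618 normalized counts (SD, n = 4) and was 15.4-fold higher in Opn5-null corneas (adjusted p = 0.000241, limma). The gelatinase gene Mmp9, whose enzyme can shed membrane mucins, was 8.60-fold higher (adjusted p = 0.000635, limma). Adam17, the tumour necrosis factor sheddase gene, was 1.53-fold, its trafficking partner gene Rhbdf2 3.23-fold and Adam9 1.22-fold higher. Lower were the related partner gene Rhbdf1 (1.59-fold) and the matrilysin gene Mmp7 (6.56-fold, 2.69 ± 1.95 against 17.6 ± 2.39 normalized counts). The call of Adam9 was lost in 9 of 18 alternative fits (adjusted p = 0.0562 to 0.344, limma), among them the quantile and upper-quartile scalings and each wild-type library left out. Neutrophils, which store the Mmp9 protein, had 10 of 11 markers higher and 0 lower, with a summed level of 55945 to 187735 against 18117 to 35114 normalized counts, and their part was not tested.

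Of 22 transcription factor genes tied to mucins or surface cells 7 were higher, 2 lower and 13 not called. The median log2 fold change of this list was nevertheless -0.39, and 14 of 22 were negative. The grainyhead genes Grhl1, Grhl2 and Grhl3 had log2 fold changes of -1.11, -1.30 and -0.72 and were not called. Rbpj, the DNA-binding partner of Notch, was 3.24-fold higher (adjusted p = 0.000699, limma), Nfkb1 3.01-fold, Hif1a 2.41-fold and Stat3 1.61-fold higher. Lower were the Notch target Hes1 (1.95-fold) and Klf5 (1.77-fold), a factor of stratified epithelium. The lower count was 4 after quantile normalization, 5 with upper-quartile scaling, 7 without Opn5-null D, 0 without wild-type A, B or C, and 1 without Opn5-null A or wild-type D.

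**Figure D5:**
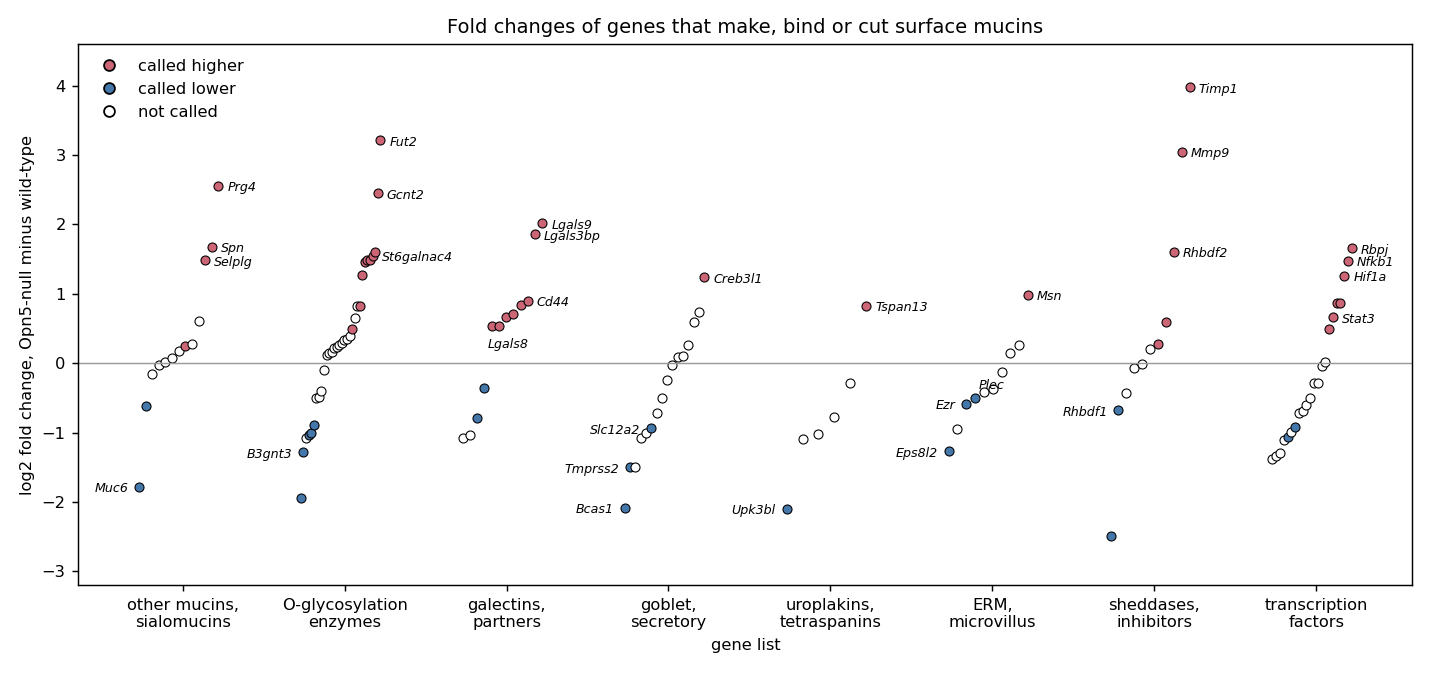
Log2 fold change, Opn5-null minus wild-type (y axis), of every measured gene in 8 lists (x axis), sorted within each list. Filled points are called higher (red) or lower (blue) by limma and open points are not called. Galectins and partners lie mostly above 0 and sheddases and inhibitors reach 3.97 at Timp1, while goblet, uroplakin and linker genes lie mostly below 0.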

How the data were processed

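Total RNA of 8 whole corneas was depleted of ribosomal and globin RNA and sequenced with a stranded kit, per the labels' protocols. RSEM 1.3.1 was used, per the submitters' processing notes. The aligner, genome build and strandedness of counting were not given in the sources used here. Deposited by the authors was 1 signal value per gene and library, normalized counts that the values show to be reads divided by 1 size factor. Dividing by each column's smallest nonzero value gave whole reads for 100% of values within 0.001, over 16091 genes with at least 81 reads each over the 8 libraries. The authors' deposited log2 fold changes, p-values and −log10 adjusted p-values came from their own comparison, per the file headers. The last of these was not used, and 9 genes had no p-value.

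The deposited values are normalized, and limma was the planned main test for such values, although whole reads could be recovered. It was limma 3.58.1 (R 4.3.3, intensity trend, robust variance) on log2(value + 1), over genes at 1 or more in at least 4 libraries. This kept 16085 genes and all 10 described. It understates the change of low genes. Folds are ratios of mean normalized counts. Letters were not used as a block. The members and gene lists were chosen with earlier results of these data known. Named genes were the 10 genes and, per list, up to 4 called genes with the lowest adjusted p, or the 2 with the highest mean. For likeness, the 3 nearest genes with a mean of at least 50 and no predicted-gene code were named. The symbol of 1 of them had been turned into a date and was read from its identifier. Coordinates and exonic lengths came from GENCODE M21 (GRCm38), in which 16055 of 16091 identifiers matched. Alternatives were other scalings, filters, pseudocount and threshold, a replicate block, each library left out, and, on recovered reads, edgeR 4.0.16, DESeq2 1.42.0 and limma-voom with quality weights. edgeR called 3006 genes higher and 2046 lower. The main test was tried on simulated data first.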

Additional observations from a re-analysis of the deposited data

Results flagged for a closer look

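Of 20 groups of 4 libraries tested, 1 held a library far from the others. Muc4 in Opn5-null D, at 5703 normalized counts, was separated from the next lowest Opn5-null library by 0.874 of the group's range, above Dixon's 95% critical value for 4 samples. Chance gives about 1 such group in 20. In the same library the corneal epithelial list differed from the wild-type mean by -2.57 and the junction list by -2.21 on the log2 scale, and their part in the Muc4 level was not tested.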

How the results depend on the processing

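The 10 genes kept a negative fold change in all 18 alternative fits, and none was called higher in any. Clca1, Msln and Muc16 were called lower in all 18, Lgals3 in 17, Upk1b in 13, Muc4 in 12, Muc1 in 6, Muc20 in 4, and Muc15 and Agr2 in 0. The number of these genes called lower ranged from 3 to 8 with 1 library left out and was 3 at an adjusted p below 0.01. It was 5 with a replicate block, where Muc4 missed (adjusted p = 0.0516, limma), 7 after quantile normalization or upper-quartile scaling, and 8 with limma-voom with quality weights or DESeq2. The quality weights were 4.01 for Opn5-null B and 0.55, 0.38 and 0.19 for Opn5-null A, C and D. The limma-voom fit therefore leaned mostly on 1 Opn5-null library, and the DESeq2 fit nearly repeated the authors' deposited table. Same-lettered libraries did not deviate together (correlations -0.16, -0.13, 0.14 and 0.13 for A to D, and 0 Opn5-null libraries best matched by their own letter). The labels do not say whether the letters pair samples, and these correlations cannot exclude a pairing that left no trace in expression. Over all genes, the count called lower was 3746 after quantile normalization, 3663 with upper-quartile scaling, 3487 with limma-voom with quality weights and 702 at an adjusted p below 0.01, and 1079 to 2543 with 1 library left out, against 2175. Without wild-type A, C and D it was 1079, 1243 and 1289. The count called higher was 1818 at an adjusted p below 0.01, against 3029, and 2532 and 2528 with the quantile and upper-quartile scalings, so that lower calls then outnumbered higher ones. Under both, the median over all genes shifted from -0.02 to -0.13 (log2). The cause of these shifts was not tested. With 7 libraries fewer residual degrees of freedom remain. Muc16 and Clca1 rest on 92 or fewer reads in any library, which limits their precision.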

Other observations

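Of 10 lens genes 9 were lower and 0 higher in Opn5-null corneas, among them Crybb2 (8.09-fold), Cryba2 (6.45-fold), Cryba1 (6.05-fold) and Cryba4 (4.87-fold), which encode beta crystallins. Their summed level was 958 to 1576 against 1845 to 6439 normalized counts, and 1 lens gene was called higher without Opn5-null D. Of 10 keratocyte genes 6 were not called, 3 were higher (Thbs4, 1.99-fold, Lum, 1.67-fold, and Col5a1) and Angptl7 was 4.45-fold lower. Lum lost its call after quantile normalization (adjusted p = 0.0972, limma), and 2 keratocyte genes were lower without Opn5-null D. Of 8 endothelial genes 7 were not called, and Slc4a11, a corneal endothelial transporter gene, was 2.61-fold lower (adjusted p = 0.00564, limma).

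Of 11 basal epithelial genes 3 were lower (Krt15, Itgb4 and Itga6) and Ifitm3 was 2.79-fold higher. Krt5, Krt14, Krt15 and Trp63 were also in the corneal differentiation list. The lower count was 6 without Opn5-null D and 1 without wild-type A, B or C.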
